A study of Mus musculus with 12 samples.

Results

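Fibroblast growth factor (FGF) signalling genes were followed in mouse epiblast stem cells that carry a doxycycline-inducible, FLAG-tagged Mixl1. The genes were taken from a list of 39 names covering the ligands, the receptors, the inhibitors that FGF signalling induces and its ETS-family targets. Of these, 38 were matched by symbol among the 55487 genes counted, and Spry3 was not analysed here. Epiblast stem cells are pluripotent cells of the type found in the embryo shortly before gastrulation, and those used here were derived in culture from embryonic stem cells. They were grown as embryoid bodies, free-floating aggregates in serum medium in which the cells differentiate. Mixl1 is a paired-type homeobox transcription factor of the primitive streak.

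Bulk RNA sequencing was done on 12 libraries in 4 groups of 3. D1Dox_d2 was collected on day 2 and D3Dox_d4 on day 4, each after doxycycline was added to the medium (1 µg/mL). NoDox_d2 and NoDox_d4 were the day 2 and day 4 embryoid bodies that had no doxycycline. All 4 groups carried the transgene. What the digit after the D stands for, the strain of origin and whether the line is 1 clone are not stated in the labels. There is no doxycycline control that lacks the transgene, and the drug's own effect cannot be told apart from that of Mixl1. Whether replicates are separate cultures is not stated either, so that the p-values cover the spread over these libraries alone, which may be technical.

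FGF ligands bind receptor tyrosine kinases at the cell surface together with heparan sulfate, and the receptors signal through RAS, RAF, MEK and ERK. Active ERK induces its own inhibitors, among them the Sprouty, Spred and Dusp6 genes, and the ETS factors Etv4 and Etv5, so these transcripts are widely used as a readout of the pathway. In the mouse embryo Fgf5 marks the epiblast, Fgf8 and Fgf4 are made in the primitive streak, and signalling through Fgfr1 is needed for mesoderm cells to leave the streak.

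Libraries held 24100487 to 28020036 counts over 24156 to 27347 detected genes. Levels are given as CPM, counts scaled to the library's size with edgeR's TMM method, on which 3 counts correspond to 0.106 to 0.130 CPM. Mixl1 was at 392, 362 and 387 CPM in D1Dox_d2 and 478, 417 and 449.6 CPM in D3Dox_d4, a count that does not tell the transgene's transcript from that of the cell's own gene. It was at 0.593 to 1.83 CPM in 5 of the NoDox libraries, but at 91.0 CPM in the library labelled NoDox_d2 replicate 1. The log2 fold change of Mixl1 was 3.62 ± 1.22 on day 2 (edgeR adjusted p = 0.0453), or 8.74 ± 0.26 without that library (adjusted p = 5.12e-09), and 8.20 ± 1.57 on day 4 (adjusted p = 0.00311). That library also had 1261 CPM of T, a streak gene, against 100.1 and 142 CPM in the other NoDox_d2 libraries. The NoDox libraries numbered 1 stood apart on each day: their correlation with the other replicates of their group was 0.966 to 0.970, against 0.992 to 0.996 for every other replicate pair (log2 CPM, all genes tested). The effects of each day on the FGF genes are therefore given with all 12 libraries. Where it changes a call or moves a called value by over 1.5 times, they are also given without both of these libraries. For the other comparisons the calls without these libraries are counted, and only some of the genes are named. Of the markers of other cell types, 11 of 13 fibroblast genes rose on day 2 (14.9% of all genes). Their summed level was 2024 to 2509 CPM in D1Dox_d2 and 273 to 441 CPM in NoDox_d2. On day 4, 9 of 10 neuron genes rose (13.4% of all genes), with 1566 to 1773 CPM in D3Dox_d4 and 152 to 452 CPM in NoDox_d4. Summed epiblast markers were at 1327 to 1469 CPM in D1Dox_d2 and 2038 to 2332 CPM in NoDox_d2, and at 683 to 748 CPM in D3Dox_d4 and 925 to 1246 CPM in NoDox_d4. Of these 12 genes, 5 fell on day 2 (13.4% of all genes) and 7 were not called. On day 4, 1 rose and 5 fell (13.4% and 10.2% of all genes), and 6 were not called. Paraxial mesoderm markers were at 36.2 to 46.7 CPM in D1Dox_d2 and 184 to 258 CPM in NoDox_d2, and 7 of the 9 tested fell (13.4% of all genes). Streak markers, a list that holds the induced Mixl1 itself, were at 720.0 to 753 CPM in D1Dox_d2, of which Mixl1 made up 362 to 392 CPM. In NoDox_d2 they were at 1606 CPM in the library labelled replicate 1 and at 143 and 204 CPM in replicates 2 and 3. Of the 10 streak genes, 4 rose on day 2, Mixl1 among them, and 2 fell (14.9% and 13.4% of all genes). T, also in this list, was at 51.1 to 54.8 CPM in D1Dox_d2, below each NoDox_d2 library. On day 4, 2 of the 13 fibroblast genes rose and 3 fell, and 3 of the 9 paraxial genes fell. Of the 10 streak genes, 2 rose on day 4, Mixl1 again among them, and 2 fell. Over all genes 13.4% rose and 10.2% fell on that day. No marker of these lists was at 0 in a whole group. In bulk RNA, fewer cells of a type and less RNA per cell cannot be told apart.

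Of the 38 genes, 35 had enough counts to be tested. Calls were made at an adjusted p under 0.05 (Benjamini-Hochberg, over all genes tested) in the quasi-likelihood test of edgeR. On day 2, doxycycline was accompanied by a change in 16 of the 35 genes, or 45.7%, against 28.4% of all genes. Fgf7, Fgf10, Fgf2, Fgf23, Fgf13, Fgf14, Fgfr4 and Spry4 rose (8 of 35; 14.9% of all genes), and Fgf8, Fgf17, Fgf4, Fgf3, Fgfr1, Spry1, Spry2 and Spred1 fell (8 of 35; 13.4% of all genes). The 3 libraries of each group did not overlap for 19 of the 35 genes, against 46.0% of all genes. The median log2 fold change was -0.18 over the 35 genes and -0.03 over all genes. Of the 16 calls, those of Fgf3, Fgf10, Fgf23, Fgfr1 and Spry2 were kept in each of the 12 fits that left out 1 library. Another 2 genes had an unadjusted p under 0.05 without being called. The count was 10 when replicate 1 of D1Dox_d2 was left out, 6 when replicate 3 of D1Dox_d2 was, and 9 when replicate 2 or replicate 3 of NoDox_d2 was.

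On day 4, 10 of the 35 genes changed, or 28.6%, against 23.5% of all genes. Fgf10, Fgf9, Fgf23, Fgf13 and Fgfr4 rose (5 of 35; 13.4% of all genes), and Fgf17, Fgf18, Fgf5, Spry1 and Spred1 fell (5 of 35; 10.2% of all genes). Groups did not overlap for 17 genes, against 40.6% of all genes, and the median log2 fold change was -0.00 over the 35 genes and -0.03 over all. The calls of Fgf13, Fgfr4, Spry1 and Spred1 were kept in each of the 12 fits that left out 1 library, and another 6 genes had an unadjusted p under 0.05 without being called. The count was 6 when replicate 1 of D3Dox_d4 was left out and 5 when replicate 2 or replicate 3 of D3Dox_d4 was. Leaving out both NoDox libraries numbered 1 raised the day 4 count to 23 of 35, against 38.5% of all genes, with 13 higher (20.6% of all genes) and 10 lower (17.9%). The day 2 count was then 24 of 35, against 53.2% of all genes, with 11 higher (26.8%) and 13 lower (26.4%). Both days' calls were shared by 4 genes that rose, Fgf10, Fgf13, Fgf23 and Fgfr4, and by 3 that fell, Fgf17, Spry1 and Spred1. With all libraries, no gene was called in opposite directions on the 2 days, and 16 were called on neither. Without both NoDox libraries numbered 1, 4 genes were called in opposite directions: Fgf18 and Fgf5 (higher on day 2, lower on day 4) and Fgf21 and Il17rd (lower on day 2, higher on day 4).

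**Figure D1:**
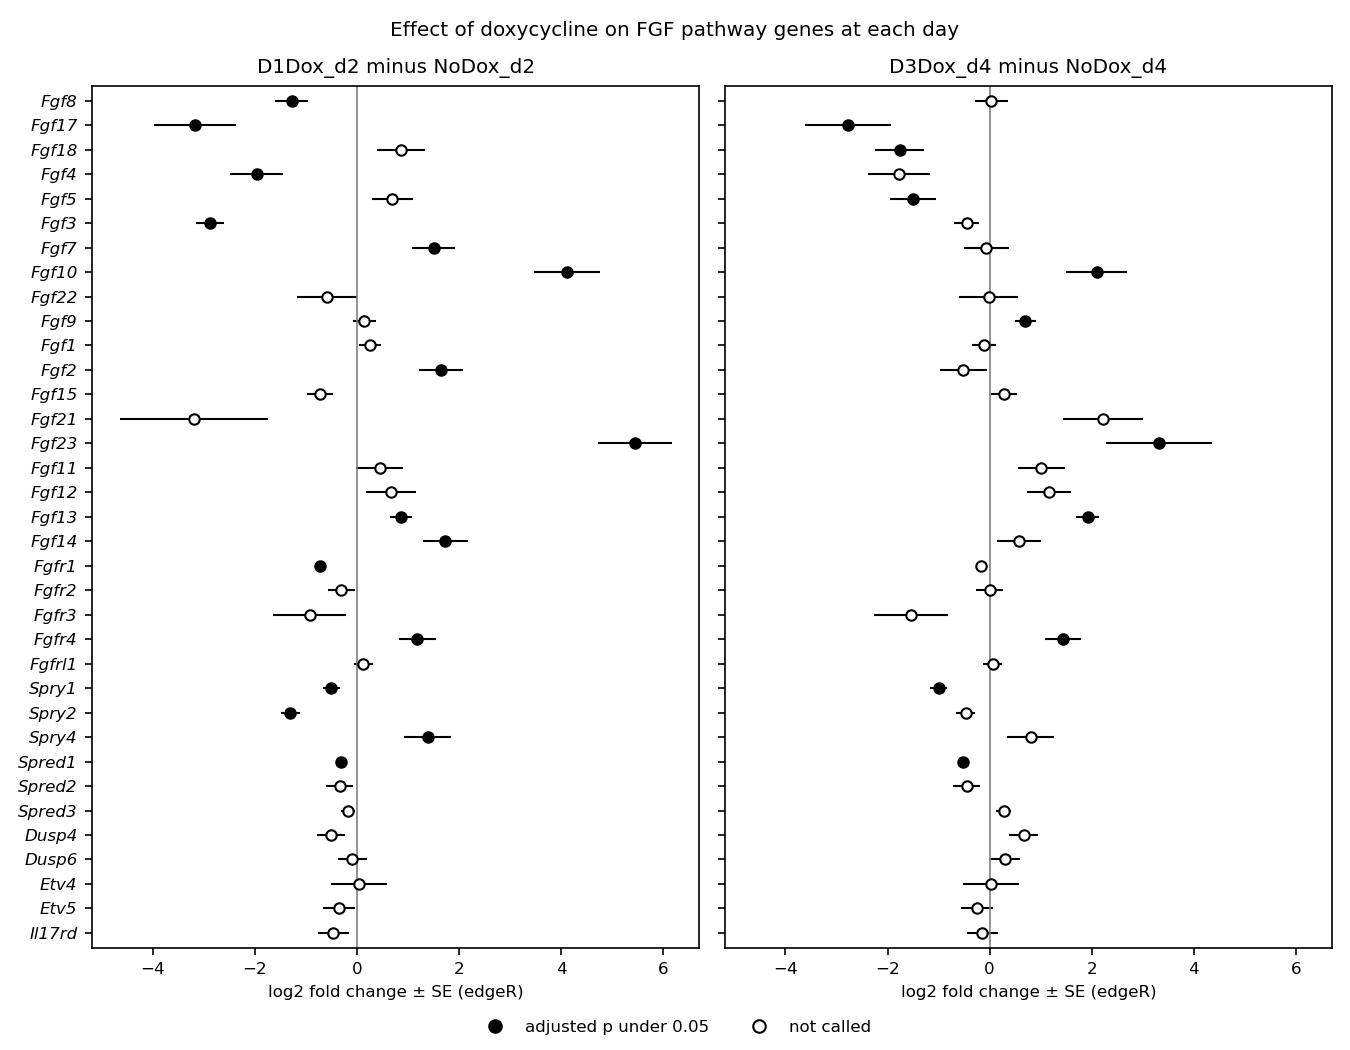
Log2 fold change ± SE from edgeR for the 35 genes tested, D1Dox_d2 minus NoDox_d2 on the left and D3Dox_d4 minus NoDox_d4 on the right, n = 3 libraries per group. Filled points are called at adjusted p under 0.05: 8 higher and 8 lower on day 2, and 5 higher and 5 lower on day 4. Values of Fgf21 and Fgf23 rest on groups with few counts.

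The start-site windows of genes called in the same direction on both days are shown because Mixl1 is a homeobox factor and the pathway ends in ETS factors. RefSeq promoter windows (build GRCm38.p6) run from 250 bases before to 50 after a start site and were matched for 28 of the 39 listed genes. They are printed for the 5 of these 7 genes that have exactly 1 window: Fgf10, Fgf23 and Fgfr4, which rose, and Spry1 and Spred1, which fell. Capitals mark TAAT, the core of many homeobox sites, and CGGAA, the core of many ETS sites, on either strand, so that ATTA and TTCCG are the same motifs read on the other strand.
Fgf10 chr13:118714449-118714748 plus strand: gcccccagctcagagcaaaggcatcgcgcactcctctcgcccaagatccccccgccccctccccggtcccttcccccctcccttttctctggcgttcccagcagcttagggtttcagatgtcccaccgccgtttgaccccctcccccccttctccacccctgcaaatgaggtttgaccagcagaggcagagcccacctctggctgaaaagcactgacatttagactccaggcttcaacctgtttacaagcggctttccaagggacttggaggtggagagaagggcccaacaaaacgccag
Fgf23 chr6:127072652-127072951 plus strand: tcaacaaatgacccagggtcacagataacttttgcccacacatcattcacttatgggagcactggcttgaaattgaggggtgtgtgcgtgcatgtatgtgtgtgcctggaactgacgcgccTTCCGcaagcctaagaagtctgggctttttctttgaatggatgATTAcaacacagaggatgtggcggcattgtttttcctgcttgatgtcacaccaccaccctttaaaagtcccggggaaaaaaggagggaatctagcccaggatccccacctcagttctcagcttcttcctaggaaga
Fgfr4 chr13:55152568-55152867 plus strand: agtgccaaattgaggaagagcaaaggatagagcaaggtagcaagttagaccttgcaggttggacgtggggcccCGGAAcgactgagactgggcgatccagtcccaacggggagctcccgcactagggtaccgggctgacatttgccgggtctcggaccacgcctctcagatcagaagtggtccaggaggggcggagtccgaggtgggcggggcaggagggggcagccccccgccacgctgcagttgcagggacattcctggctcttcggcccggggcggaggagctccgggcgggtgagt
Spry1 chr3:37639697-37639996 plus strand: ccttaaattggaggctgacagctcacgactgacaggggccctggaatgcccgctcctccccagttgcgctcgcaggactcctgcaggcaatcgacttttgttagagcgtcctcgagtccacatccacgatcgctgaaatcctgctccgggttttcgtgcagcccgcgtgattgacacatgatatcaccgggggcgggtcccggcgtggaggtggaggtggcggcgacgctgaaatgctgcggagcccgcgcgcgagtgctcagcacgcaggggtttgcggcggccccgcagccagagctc
Spred1 chr2:117120821-117121120 plus strand: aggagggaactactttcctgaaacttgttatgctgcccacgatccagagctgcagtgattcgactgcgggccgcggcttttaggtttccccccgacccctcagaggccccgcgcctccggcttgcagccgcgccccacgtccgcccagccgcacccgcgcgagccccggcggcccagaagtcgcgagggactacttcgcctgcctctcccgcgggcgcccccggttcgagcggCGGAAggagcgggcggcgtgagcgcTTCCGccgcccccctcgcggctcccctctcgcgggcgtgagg
TAAT occurred in 1 of these windows, that of Fgf23, against 58.0% of the 32851 windows in the table and 14 of the 36 windows of the listed genes. CGGAA occurred once in the Fgf23 and Fgfr4 windows and 2 times in the Spred1 window, against 29.9% of all windows and 13 of the 36. The Fgf10 and Spry1 windows held neither motif. The motifs were chosen with the expression results known, and a match is a description of these letters.

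Among the ligands of the Fgf8 subfamily, which act in the streak and midbrain, Fgf8 and Fgf17 fell on day 2 and Fgf17 and Fgf18 on day 4. Fgf8 (chr19:45736798-45742915, build GRCm38) was at 36.1, 32.5 and 30.1 CPM in D1Dox_d2, against 113, 56.1 and 70.9 CPM in NoDox_d2. All 3 D1Dox_d2 libraries lay below the lowest NoDox_d2 library, and the log2 fold change was -1.28 ± 0.32 (adjusted p = 0.0133, edgeR). This call was lost without replicate 3 of D1Dox_d2 (adjusted p = 0.0539). The summed streak markers were also highest in the library labelled NoDox_d2 replicate 1, and the paraxial markers, like Fgf8, Fgf17, Fgf4 and Fgf3, were lower in all D1Dox_d2 libraries than in any NoDox_d2 library. The part of these markers in the results of the 4 ligands was not tested. On day 4 Fgf8 was at 22.1, 27.8 and 23.2 CPM in D3Dox_d4 and 14.1, 37.7 and 19.6 CPM in NoDox_d4. The groups overlapped, with a log2 fold change of 0.03 ± 0.32 (adjusted p = 0.957).

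Fgf17 (chr14:70636203-70642268) was at 1.86, 2.07 and 2.08 CPM in D1Dox_d2 and 34.6, 7.47 and 12.05 CPM in NoDox_d2, and at 0.506, 0.959 and 0.716 CPM in D3Dox_d4 and 11.9, 1.79 and 1.31 CPM in NoDox_d4. On each day the doxycycline libraries were all lower, and the library numbered 1 was far above the other 2 in its NoDox group. The log2 fold change was -3.17 ± 0.80 on day 2 (adjusted p = 0.0129) and -2.78 ± 0.84 on day 4 (adjusted p = 0.0328). Leaving out both NoDox libraries numbered 1 gave -2.29 ± 0.25 (adjusted p = 2.51e-06) and -1.08 ± 0.33 (adjusted p = 0.0179). With only 1 library left out, the day 2 call was lost without replicate 3 of D1Dox_d2 (adjusted p = 0.0512), and the day 4 call without replicate 1, 2 or 3 of D3Dox_d4 or replicate 1 of NoDox_d4 (adjusted p = 0.0753 to 0.236).

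Fgf18 had opposite signs on the 2 days. It was at 3.83, 3.09 and 3.60 CPM in D1Dox_d2 and 3.64, 0.988 and 1.12 CPM in NoDox_d2, where the library labelled NoDox_d2 replicate 1 lay among the doxycycline libraries. The day 2 log2 fold change of 0.87 ± 0.47 was not called (adjusted p = 0.188), while without both NoDox libraries numbered 1 it was 1.72 ± 0.24 (adjusted p = 3.09e-05). Leaving out the library labelled NoDox_d2 replicate 1 alone also gave a call (adjusted p = 0.00414). On day 4 Fgf18 fell, at 1.52, 1.22 and 1.47 CPM in D3Dox_d4 against 7.41, 3.62 and 3.27 CPM in NoDox_d4. The groups did not overlap, and the log2 fold change was -1.76 ± 0.48 (adjusted p = 0.0203). That call was lost without replicate 1, 2 or 3 of D3Dox_d4 or replicate 1 of NoDox_d4 (adjusted p = 0.0563 to 0.0777). The difference between the days, day 4 effect minus day 2 effect, was -2.63 ± 0.67 on the log2 scale (adjusted p = 0.0260), a call lost without replicate 1, 2 or 3 of D1Dox_d2, replicate 1, 2 or 3 of D3Dox_d4 or replicate 2 or 3 of NoDox_d2 (adjusted p = 0.0526 to 0.0669).

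Of the Fgf4 subfamily, Fgf4, an early ligand of the pluripotent epiblast, fell on day 2, and the epiblast gene Fgf5 fell on day 4. Fgf4 was at 0.985, 1.38 and 1.2997 CPM in D1Dox_d2 and 8.90, 2.45 and 2.97 CPM in NoDox_d2. Every D1Dox_d2 library was lower than every NoDox_d2 library, with a log2 fold change of -1.97 ± 0.52 (adjusted p = 0.0166). It was -1.16 ± 0.36 without both NoDox libraries numbered 1 (adjusted p = 0.0142), and the call was lost without replicate 1 or 3 of D1Dox_d2 (adjusted p = 0.0549 to 0.0611). On day 4 Fgf4 was at 0.325, 0.221 and 0.398 CPM in D3Dox_d4 and 1.42, 1.38 and 0.461 CPM in NoDox_d4. These groups did not overlap either, but the log2 fold change of -1.77 ± 0.60 was not called (adjusted p = 0.0518). It was called without both NoDox libraries numbered 1 (-1.53 ± 0.47, adjusted p = 0.0196) and without the library labelled NoDox_d2 replicate 1, replicate 2 of NoDox_d2 or replicate 3 of NoDox_d4 (adjusted p = 0.0110 to 0.0416). Fgf6, the third gene of this subfamily, had too few counts to be tested and reached 0.154 CPM.

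Fgf5 (chr5:98254184-98277030) was at 34.4, 33.4 and 32.5 CPM in D1Dox_d2 and 31.7, 12.3 and 17.998 CPM in NoDox_d2. The doxycycline libraries lay just above the library labelled NoDox_d2 replicate 1 and far above the other 2. A log2 fold change of 0.69 ± 0.41 was not called (adjusted p = 0.226), and the value was 1.13 ± 0.18 (adjusted p = 0.000118) without both NoDox libraries numbered 1. Leaving out the library labelled NoDox_d2 replicate 1 alone also gave a call (adjusted p = 0.0393). On day 4 Fgf5 was lower everywhere, at 1.301, 2.73 and 1.87 CPM in D3Dox_d4 and 2.33, 7.3996 and 7.03 CPM in NoDox_d4. The highest D3Dox_d4 library was above the library labelled NoDox_d4 replicate 1, and the log2 fold change was -1.50 ± 0.45 (adjusted p = 0.0321). This call was lost without replicate 1 or 3 of D3Dox_d4 or replicate 2 or 3 of NoDox_d4 (adjusted p = 0.0975 to 0.113). The difference between the days was -2.20 ± 0.61 (adjusted p = 0.0366), a call lost without replicate 1, 2 or 3 of D1Dox_d2, replicate 1 or 3 of D3Dox_d4, replicate 2 or 3 of NoDox_d2 or replicate 2 or 3 of NoDox_d4 (adjusted p = 0.0712 to 0.0874).

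In the Fgf7 subfamily, whose members Fgf7 and Fgf10 are made by mesenchyme and act on neighbouring epithelium, these ligands rose on day 2 while Fgf3 fell. Fgf10 (chr13:118669791-118792115) was at 24.4, 23.4 and 24.95 CPM in D1Dox_d2, against 2.15, 0.751 and 1.26 CPM in NoDox_d2. No library of D1Dox_d2 came near those of NoDox_d2, with a log2 fold change of 4.11 ± 0.65 (adjusted p = 0.000936). The day 4 levels of Fgf10 were 13.01, 16.2 and 16.3 CPM in D3Dox_d4 and 8.05, 1.38 and 1.19 CPM in NoDox_d4, the highest of the NoDox_d4 values being that of replicate 1. The day 4 log2 fold change was 2.10 ± 0.59 (adjusted p = 0.0243), and 3.56 ± 0.19 (adjusted p = 3.78e-09) without both NoDox libraries numbered 1. With all other libraries kept, the call was lost without replicate 2 or 3 of D3Dox_d4 or replicate 2 or 3 of NoDox_d4 (adjusted p = 0.0649 to 0.0695). The summed fibroblast markers were likewise high in NoDox_d4 replicate 1, at 781 CPM against 169 and 175 CPM in NoDox_d4 replicates 2 and 3. Their part in the Fgf10 result was not tested.

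Fgf7 was at 1.89, 1.18 and 1.91 CPM in D1Dox_d2 and 0.6002, 0.672 and 0.483 CPM in NoDox_d2. It was higher in all 3 D1Dox_d2 libraries, with a log2 fold change of 1.50 ± 0.42 (adjusted p = 0.0211), and the call was lost without replicate 1 or 3 of D1Dox_d2 or replicate 2 or 3 of NoDox_d2 (adjusted p = 0.0507 to 0.0819). On day 4 Fgf7 averaged 0.557 ± 0.217 CPM in D3Dox_d4 and 0.581 ± 0.276 CPM in NoDox_d4 (SD, n = 3 each) and was not called (adjusted p = 0.939). The part of the fibroblast markers that rose with Fgf7, Fgf10 and Fgf2 on day 2 was not tested for these genes either.

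Fgf3, a ligand of the posterior embryo and the inner ear (chr7:144838083-144844436), was at 1.02, 0.814 and 0.650 CPM in D1Dox_d2 and 8.44, 4.98 and 4.95 CPM in NoDox_d2. All D1Dox_d2 libraries were far below the NoDox_d2 libraries, and the log2 fold change was -2.87 ± 0.28 (adjusted p = 2.80e-05). The day 4 levels of Fgf3 were 4.41, 4.90 and 5.09 CPM in D3Dox_d4 and 6.31, 5.98 and 7.38 CPM in NoDox_d4. The groups still did not overlap, but the log2 fold change of -0.45 ± 0.25 was not called (adjusted p = 0.219), whereas without both NoDox libraries numbered 1 it was (-0.48 ± 0.18, adjusted p = 0.0463). The effects of the 2 days differed by 2.42 ± 0.37 (adjusted p = 0.00257), the 1 difference between days that was called in each of the 12 fits that left out a library. Fgf22 averaged 0.279 to 0.428 CPM in the 4 groups and was not called on either day.

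Of the Fgf9 subfamily, Fgf9 alone had enough counts to be tested, and it rose on day 4. It was at 11.8, 10.2 and 11.7 CPM in D3Dox_d4 and 8.68, 6.30 and 5.84 CPM in NoDox_d4. The lowest D3Dox_d4 library was above the highest NoDox_d4 library, with a log2 fold change of 0.70 ± 0.20 (adjusted p = 0.0293). The call was lost without replicate 1, 2 or 3 of D3Dox_d4 or replicate 2 or 3 of NoDox_d4 (adjusted p = 0.0542 to 0.104). On day 2 Fgf9 averaged 1.92 ± 0.218 CPM in D1Dox_d2 and 1.74 ± 0.283 CPM in NoDox_d2 (SD, n = 3 each), and the groups overlapped. Fgf16 reached 0.607 CPM, in D1Dox_d2, and Fgf20 reached 0.177 CPM, in the library labelled NoDox_d2 replicate 1. Fgf20 had 0 counts in all 6 doxycycline libraries, where 3 counts would be 0.109 to 0.130 CPM, so a lower level was not detectable at this depth.

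Fgf2, a ligand of the Fgf1 subfamily that is secreted without a signal peptide and is a standard supplement of epiblast stem cell medium, rose on day 2. It was at 4.47, 4.60 and 6.76 CPM in D1Dox_d2 and 2.93, 1.26 and 0.818 CPM in NoDox_d2. The D1Dox_d2 libraries were all higher, with a log2 fold change of 1.65 ± 0.43 (adjusted p = 0.0157), or 2.33 ± 0.29 (adjusted p = 1.10e-05) without both NoDox libraries numbered 1. The call was lost without replicate 3 of D1Dox_d2 or replicate 2 or 3 of NoDox_d2 (adjusted p = 0.0570 to 0.0674). On day 4 Fgf2 was at 0.868, 0.885 and 0.836 CPM in D3Dox_d4 and 1.81, 0.772 and 1.11 CPM in NoDox_d4, with overlapping groups (adjusted p = 0.468). The day 4 effect minus the day 2 effect was -2.16 ± 0.63 (adjusted p = 0.0443), and this call was lost without replicate 1, 2 or 3 of D1Dox_d2, replicate 1, 2 or 3 of D3Dox_d4, replicate 2 or 3 of NoDox_d2 or replicate 1 or 3 of NoDox_d4 (adjusted p = 0.0652 to 0.109). Fgf2 shares 9.44% of its exon bases with Nudt6 on the other strand, and the counting used no strand. Fgf1 was at 7.16, 6.31 and 6.84 CPM in D1Dox_d2 and 6.64, 4.55 and 5.91 CPM in NoDox_d2, and at 1.37, 1.84 and 1.87 CPM in D3Dox_d4 and 1.74, 1.59 and 2.19 CPM in NoDox_d4. Its groups overlapped on each day, and it was called on neither (adjusted p = 0.421 on day 2 and 0.763 on day 4).

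The endocrine ligands, which circulate as hormones in the adult, behaved differently from each other. Fgf15, a hormone of the gut that is also made in the embryonic neural tube, was at 41.0, 31.4 and 32.0 CPM in D1Dox_d2 and 45.2, 63.1 and 64.7 CPM in NoDox_d2. The D1Dox_d2 libraries were all lower, but the log2 fold change of -0.73 ± 0.26 was not called (adjusted p = 0.0555). It was called without both NoDox libraries numbered 1 (-0.88 ± 0.13, adjusted p = 6.73e-05) and without the library labelled NoDox_d2 replicate 1 or replicate 1 or 3 of NoDox_d4 (adjusted p = 0.00569 to 0.0478). The day 4 levels of Fgf15 were 158, 122 and 119.7 CPM in D3Dox_d4 and 62.9, 127 and 139.6 CPM in NoDox_d4, and the groups overlapped (adjusted p = 0.482). Because 25.7% of its exon bases are shared with genes on the other strand, reads of the 2 strands cannot be told apart in this count.

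Fgf23, the phosphate hormone of bone (chr6:127072902-127081408), rose on each day, with very few counts in the NoDox groups. On day 2 it had 136 counts over the 3 D1Dox_d2 libraries and 3 over the 3 NoDox_d2 libraries, and it was at 2.05, 2.03 and 1.39 CPM and 0.0353, 0 and 0.0744 CPM in these groups. The depth-scaled ratio was 49.3, with an exact 95% interval for counting error of 16.5 to 242 (edgeR adjusted p = 0.000267). On day 4 it had 14 counts in D3Dox_d4 and 1 in NoDox_d4, a ratio of 13.3 with an interval of 2.03 to 563 (adjusted p = 0.0383). The day 4 call was lost without both NoDox libraries numbered 1 (adjusted p = 0.0746) and without replicate 1, 2 or 3 of D1Dox_d2, replicate 2 of D3Dox_d4 or replicate 1 or 3 of NoDox_d4 (adjusted p = 0.0509 to 0.159). Fgf21, a liver hormone, had 1 count in D1Dox_d2 and 13 in NoDox_d2, a ratio of 0.0836 with an interval of 0.00197 to 0.557, and was not called (adjusted p = 0.1198). On day 4 it was at 1.66, 0.848 and 1.03 CPM in D3Dox_d4 and 0, 0.407 and 0.346 CPM in NoDox_d4, with no overlap and no call (adjusted p = 0.0597). Fgf21 was called without both NoDox libraries numbered 1 on day 2 (adjusted p = 0.00799) and day 4 (adjusted p = 0.0194). With a single library left out it was called on day 2 without replicate 1 of NoDox_d4 (adjusted p = 0.0414), and on day 4 without the library labelled NoDox_d2 replicate 1 (adjusted p = 0.0331).

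**Figure D2:**
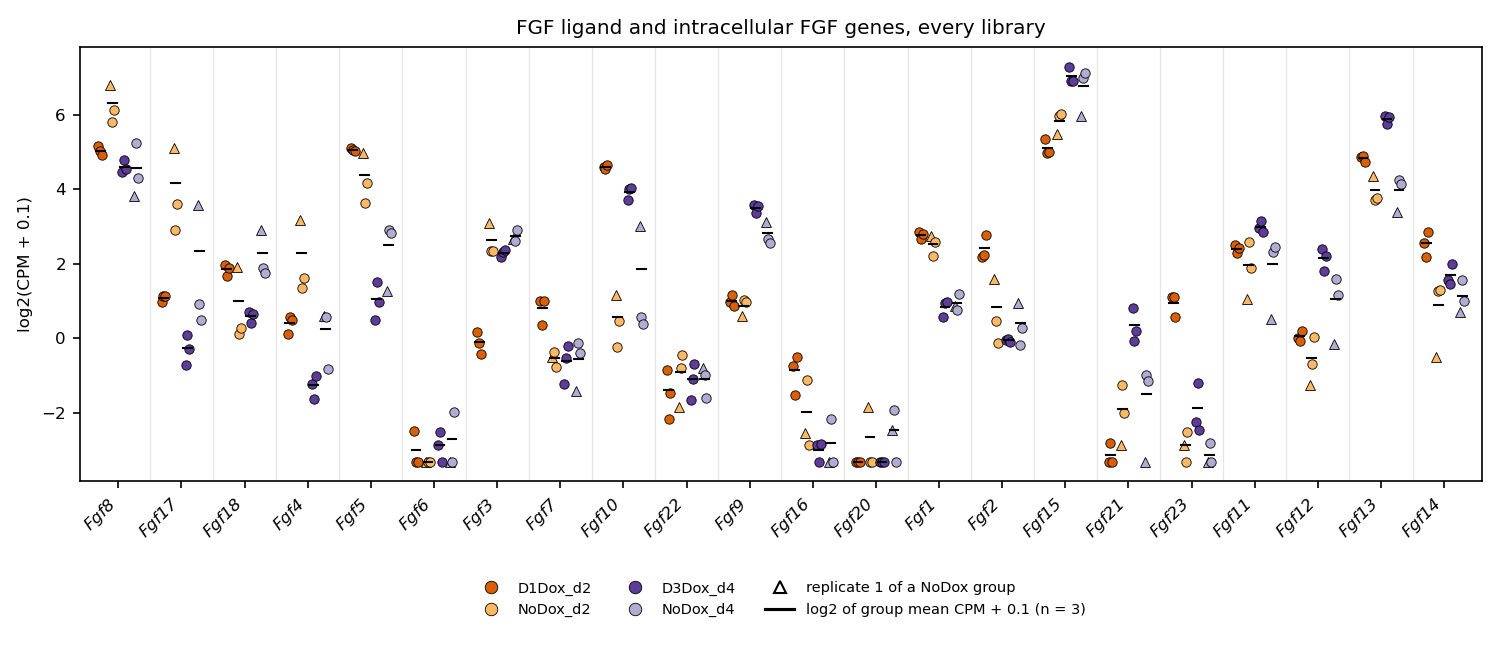
Level of each secreted ligand and intracellular FGF gene in every library, as log2(CPM + 0.1). Points are libraries, with a triangle for replicate 1 of a NoDox group, and the bars give log2 of the group mean CPM + 0.1, n = 3 per group. Fgf10 and Fgf13 were higher, and Fgf17 lower, in all doxycycline libraries than in any NoDox library of the same day.

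The intracellular FGFs (Fgf11 to Fgf14) are not secreted and bind voltage-gated sodium channels in neurons. Fgf13 (chrX:59062145-59568071) rose on each day. It was at 29.1, 29.6 and 26.8 CPM in D1Dox_d2 and 20.4, 13.1 and 13.5 CPM in NoDox_d2, and at 62.5, 53.8 and 61.5 CPM in D3Dox_d4 and 10.4, 19.1 and 17.6 CPM in NoDox_d4. The doxycycline libraries were higher throughout, and on day 4 the lowest of them was over 2 times the highest NoDox_d4 library. Its log2 fold change was 0.86 ± 0.22 on day 2 (adjusted p = 0.0138) and 1.92 ± 0.23 on day 4 (adjusted p = 0.00013), and the day 4 effect minus the day 2 effect was 1.05 ± 0.31 (adjusted p = 0.0454). The day 2 call was lost without replicate 2 or 3 of NoDox_d2 (adjusted p = 0.0604 to 0.0623), and the day 4 call was kept in all such fits. That of the difference was lost without replicate 1, 2 or 3 of D1Dox_d2, replicate 1, 2 or 3 of D3Dox_d4, replicate 2 or 3 of NoDox_d2 or replicate 3 of NoDox_d4 (adjusted p = 0.0517 to 0.0987), and its value was 0.60 ± 0.14 without both NoDox libraries numbered 1 (adjusted p = 0.00455).

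Fgf14 was at 5.76, 4.47 and 7.10 CPM in D1Dox_d2 and 0.6002, 2.29 and 2.34 CPM in NoDox_d2. It rose in all 3 D1Dox_d2 libraries, with a log2 fold change of 1.73 ± 0.44 (adjusted p = 0.0128), a call lost without replicate 3 of D1Dox_d2 (adjusted p = 0.0533). On day 4 its groups overlapped (adjusted p = 0.369), with a mean of 3.12 ± 0.646 CPM in D3Dox_d4 and 2.09 ± 0.678 CPM in NoDox_d4 (SD, n = 3 each). Fgf12 was at 5.13, 3.43 and 4.54 CPM in D3Dox_d4 and 0.789, 2.93 and 2.15 CPM in NoDox_d4. These did not overlap, and the log2 fold change of 1.16 ± 0.44 was not called (adjusted p = 0.0762). It was called without both NoDox libraries numbered 1 (0.78 ± 0.26, adjusted p = 0.0270), as it was without the library labelled NoDox_d2 replicate 1 or replicate 2 of NoDox_d4 (adjusted p = 0.0416 to 0.0429). Fgf11 averaged 7.87 ± 0.778 CPM in D3Dox_d4 and 3.89 ± 2.22 CPM in NoDox_d4 (SD, n = 3 each), with no call (adjusted p = 0.133), and with a call without both NoDox libraries numbered 1 (0.61 ± 0.19, adjusted p = 0.0210). On day 2 neither Fgf11 nor Fgf12 was called. Of the 10 neuron markers, 4 rose on day 2 (14.9% of all genes), with a summed level of 443 to 535 CPM in D1Dox_d2 and 222 to 337 CPM in NoDox_d2. Within NoDox_d4 the summed neuron markers were lowest in replicate 1, at 152 CPM against 452 and 402 CPM in replicates 2 and 3, and all 4 intracellular FGFs were also lowest in that library. Within NoDox_d2 the sum was again lowest in the library labelled replicate 1, at 222 CPM against 337 and 298 CPM. There Fgf11, Fgf12 and Fgf14 were lowest of their group, but Fgf13 was highest. The part of these markers in the results was not tested.

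Per kilobase of exon, which allows levels of different genes to be compared, Fgf8 led the secreted ligands on day 2 in each group, at 24.4 CPM per kilobase in D1Dox_d2 and 59.2 in NoDox_d2. Next came Fgf5 (13.4), Fgf15 (11.4) and Fgf10 (5.27) in D1Dox_d2, and Fgf15 (18.9), Fgf17 (10.7) and Fgf5 (8.27) in NoDox_d2. On day 4 Fgf15 led, at 43.5 CPM per kilobase in D3Dox_d4 and 35.9 in NoDox_d4, followed by Fgf8 at 18.03 and 17.6 in the same groups. Fgf10 was the third in D3Dox_d4 (3.30), whereas it was at 0.769 in NoDox_d4, where Fgf18 was the third (4.02). Replicate 1 raised some of these means: without it Fgf17 was at 5.78 and Fgf5 at 6.06 in NoDox_d2, so that their order turned, and in NoDox_d4 Fgf10 was at 0.280 and Fgf18, still the third, at 2.90, close to Fgf5 (2.89) and Fgf3 (2.87). These orders are descriptions of the group means, and the differences between genes were not tested.

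Among the receptors, Fgfr1 fell on day 2 and Fgfr4 rose on each day. Fgfr1, the main receptor of the epiblast and early mesoderm (chr8:25513654-25575718), was at 201, 200.02 and 217 CPM in D1Dox_d2 and 299, 367 and 354 CPM in NoDox_d2. The doxycycline libraries were all lower, with a log2 fold change of -0.72 ± 0.10 (adjusted p = 0.000291). On day 4 it was at 241, 245 and 251 CPM in D3Dox_d4 and 252, 285 and 288 CPM in NoDox_d4. The groups did not overlap, although by little, and the log2 fold change of -0.16 ± 0.10 was not called (adjusted p = 0.249). A call was made when both NoDox libraries numbered 1 were left out (-0.22 ± 0.07, adjusted p = 0.0257). The effect was 0.56 ± 0.14 higher on day 4 than on day 2 on the log2 scale (adjusted p = 0.0220), a call lost without replicate 1 or 2 of D1Dox_d2, replicate 3 of D3Dox_d4 or replicate 2 or 3 of NoDox_d2 (adjusted p = 0.0505 to 0.0595). Per kilobase Fgfr1 was the most abundant receptor in every group, at 20.9 CPM per kilobase in D1Dox_d2, 34.4 in NoDox_d2, 24.8 in D3Dox_d4 and 27.8 in NoDox_d4.

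Fgfr4 (chr13:55152640-55168759), per kilobase the least abundant receptor in every group, was at 1.33, 1.67 and 1.17 CPM in D1Dox_d2 and 0.530, 0.593 and 0.707 CPM in NoDox_d2, and at 3.04, 3.80 and 3.54 CPM in D3Dox_d4 and 0.592, 1.59 and 1.65 CPM in NoDox_d4. The doxycycline libraries were higher on each day without overlap. Its log2 fold change was 1.18 ± 0.37 on day 2 (adjusted p = 0.0333) and 1.43 ± 0.34 on day 4 (adjusted p = 0.0110). The day 2 call was lost without replicate 1, 2 or 3 of D1Dox_d2, the library labelled NoDox_d2 replicate 1 or replicate 2 or 3 of NoDox_d2 (adjusted p = 0.0570 to 0.109), and the day 4 call was kept in all fits that left out a library.

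Fgfr2 and Fgfr3, receptors of epithelia and the neural tube, were not called with all libraries. Fgfr2 was at 29.2, 31.0 and 30.1 CPM in D1Dox_d2 and 19.1, 48.9 and 43.8 CPM in NoDox_d2. The library labelled NoDox_d2 replicate 1 was the lowest of these 6 and the other 2 NoDox_d2 libraries were the highest. The log2 fold change of -0.31 ± 0.27 (adjusted p = 0.413) became -0.63 ± 0.10 (adjusted p = 0.000149) without both NoDox libraries numbered 1, and the gene was also called without the library labelled NoDox_d2 replicate 1 (adjusted p = 0.00371). On day 4 Fgfr2 was at 101, 90.3 and 104 CPM in D3Dox_d4 and 82.2, 96.2 and 118 CPM in NoDox_d4, with overlap (adjusted p = 0.997).

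Fgfr3 was at 6.67, 8.50 and 8.36 CPM in D1Dox_d2 and 4.38, 21.3 and 19.1 CPM in NoDox_d2, and at 10.1, 7.96 and 8.52 CPM in D3Dox_d4 and 3.31, 26.6 and 47.5 CPM in NoDox_d4. In each NoDox group the library numbered 1 was below every doxycycline library of that day, and the other 2 were above them all. Log2 fold changes of -0.93 ± 0.72 on day 2 (adjusted p = 0.358) and -1.54 ± 0.72 on day 4 (adjusted p = 0.149) were not called. With both NoDox libraries numbered 1 left out they were -1.37 ± 0.20 (adjusted p = 5.69e-05) on day 2 and -2.07 ± 0.20 (adjusted p = 1.26e-06) on day 4, and the day 4 value was also called without replicate 1 of NoDox_d4 (adjusted p = 0.00984). Fgfr3 shares 13.9% of its exon bases with a gene on the other strand. Fgfrl1, which lacks the kinase domain, averaged 22.7 ± 1.504 CPM in D1Dox_d2 and 20.8 ± 3.15 CPM in NoDox_d2, and 33.6 ± 3.80 CPM in D3Dox_d4 and 32.2 ± 8.82 CPM in NoDox_d4 (SD, n = 3 each). It was called on neither day.

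**Figure D3:**
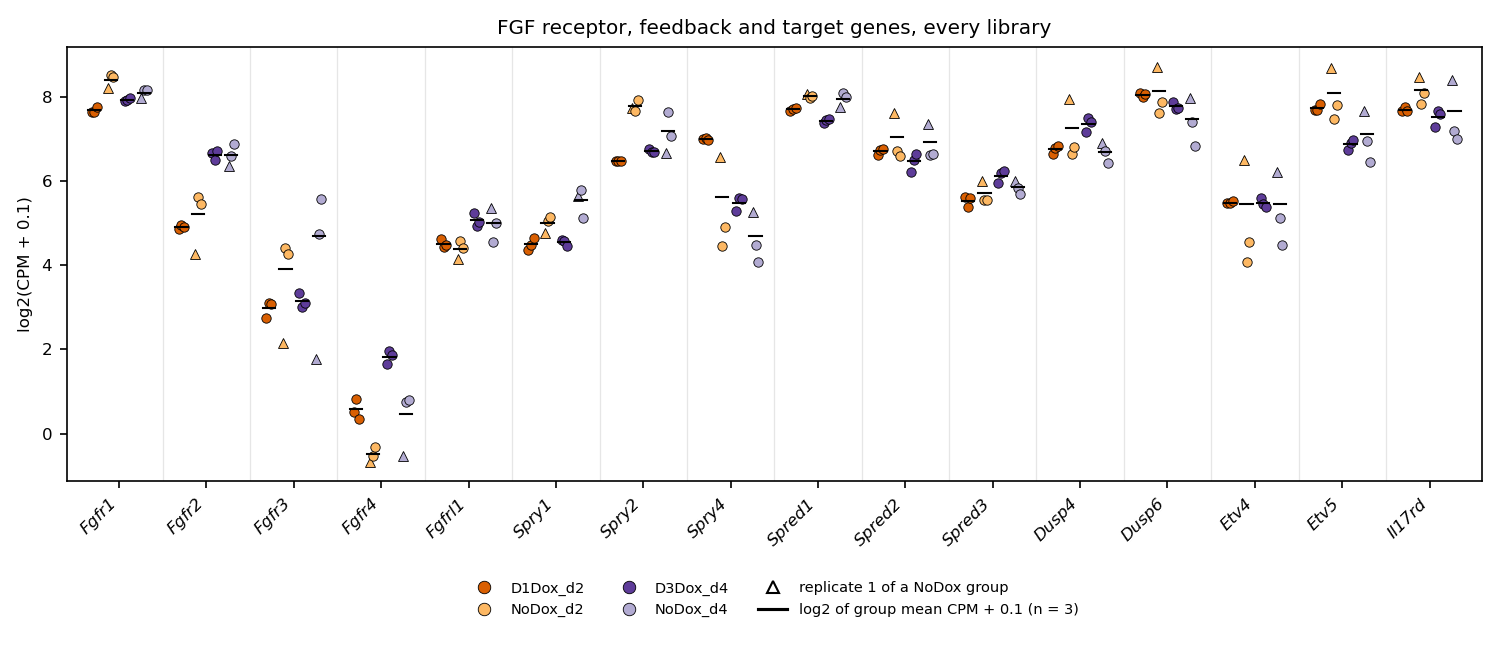
Level of each receptor, feedback and target gene in every library, as log2(CPM + 0.1). Points are libraries, with a triangle for replicate 1 of a NoDox group, and the bars give log2 of the group mean CPM + 0.1, n = 3 per group. The NoDox libraries are widely spread for Etv4, Spry4, Etv5 and Fgfr3, where the 3 doxycycline libraries of a day lie close together.

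The Sprouty genes, which encode inhibitors of receptor tyrosine kinase signalling, moved in different directions. Spry2 (chr14:105891947-105896819) fell on day 2, at 89.2, 89.3 and 88.9 CPM in D1Dox_d2 against 213, 203 and 245 CPM in NoDox_d2. All D1Dox_d2 libraries lay far below the NoDox_d2 libraries, with a log2 fold change of -1.31 ± 0.19 (adjusted p = 0.000524). On day 4 it was at 108, 103 and 103 CPM in D3Dox_d4 and 101, 200.1 and 134 CPM in NoDox_d4, where the library labelled NoDox_d4 replicate 1 lay below the doxycycline libraries. The day 4 log2 fold change of -0.47 ± 0.19 was not called (adjusted p = 0.0917). It was called without both NoDox libraries numbered 1 (-0.67 ± 0.13, adjusted p = 0.000813) and without replicate 1 of NoDox_d4 (adjusted p = 0.00586).

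Spry1 (chr3:37639947-37644598) was at 20.5, 22.3 and 25.04 CPM in D1Dox_d2 and 27.4, 33.3 and 35.3 CPM in NoDox_d2, and at 24.3, 23.9 and 21.9 CPM in D3Dox_d4 and 49.7, 55.3 and 34.8 CPM in NoDox_d4. It was lower in all doxycycline libraries of each day. Its log2 fold change was -0.50 ± 0.17 on day 2 (adjusted p = 0.0430) and -0.99 ± 0.17 on day 4 (adjusted p = 0.00142). The day 2 call was lost without replicate 1, 2 or 3 of D1Dox_d2, replicate 2 or 3 of D3Dox_d4 or replicate 2 or 3 of NoDox_d2 (adjusted p = 0.0525 to 0.138), and the day 4 call was kept in all such fits. Spry1 shares 24.4% of its exon bases with a gene on the other strand.

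Spry4 went the other way and rose on day 2. It was at 128, 130.3 and 125 CPM in D1Dox_d2 and 95.5, 21.9 and 29.9 CPM in NoDox_d2. The groups did not overlap, and the library labelled NoDox_d2 replicate 1 lay nearer to the doxycycline libraries than to the other 2. The log2 fold change was 1.38 ± 0.46 (adjusted p = 0.0413), and 2.30 ± 0.15 (adjusted p = 1.45e-08) without both NoDox libraries numbered 1. The call was lost without replicate 1, 2 or 3 of D1Dox_d2, replicate 1, 2 or 3 of D3Dox_d4, replicate 2 or 3 of NoDox_d2 or replicate 2 of NoDox_d4 (adjusted p = 0.0507 to 0.143). On day 4 Spry4 was at 38.8, 48.3 and 47.6 CPM in D3Dox_d4 and 38.2, 22.4 and 16.7 CPM in NoDox_d4. The lowest D3Dox_d4 library was just above the highest NoDox_d4 library, and the log2 fold change of 0.80 ± 0.46 was not called (adjusted p = 0.236). It was called without both NoDox libraries numbered 1 (1.20 ± 0.15, adjusted p = 1.71e-05) and without the library labelled NoDox_d2 replicate 1 (adjusted p = 0.0295).

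Of the Spred genes, whose proteins recruit neurofibromin and restrain RAS, Spred1 (chr2:117121374-117182279) fell on each day. It was at 204, 211 and 215 CPM in D1Dox_d2 and 269, 250.1 and 259.9 CPM in NoDox_d2, and at 167, 175 and 177 CPM in D3Dox_d4 and 216, 274 and 255 CPM in NoDox_d4. Every doxycycline library was lower than every NoDox library of its day. Its log2 fold change was -0.30 ± 0.09 on day 2 (adjusted p = 0.0304) and -0.52 ± 0.09 on day 4 (adjusted p = 0.00206), and the day 2 call was lost without replicate 1, 2 or 3 of D1Dox_d2 or replicate 2 or 3 of NoDox_d2 (adjusted p = 0.0542 to 0.0795). Spred2 averaged 105 ± 5.39 CPM in D1Dox_d2 and 133 ± 56.0 CPM in NoDox_d2, and 88.5 ± 12.8 CPM in D3Dox_d4 and 121 ± 37.0 CPM in NoDox_d4 (SD, n = 3 each). Spred3 averaged 46.4 ± 3.83, 52.5 ± 9.53, 69.9 ± 6.90 and 57.9 ± 6.23 CPM in the same order of groups. Neither was called on a day with all libraries, and Spred3 was called on day 4 without both NoDox libraries numbered 1 (0.36 ± 0.10, adjusted p = 0.0124).

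The phosphatase genes Dusp4 and Dusp6, whose products dephosphorylate ERK, and the receptor-level inhibitor Il17rd (Sef) were not called on either day with all libraries. Dusp6 was at 273, 258 and 267 CPM in D1Dox_d2 and 422, 195 and 235 CPM in NoDox_d2, and at 234, 212 and 215 CPM in D3Dox_d4 and 252, 170.5 and 114 CPM in NoDox_d4. The doxycycline libraries lay within the range of the NoDox libraries on each day. Dusp4 was at 99.3, 111 and 113 CPM in D1Dox_d2 and 249, 99.4 and 112 CPM in NoDox_d2, and at 145, 181 and 168 CPM in D3Dox_d4 and 120.4, 106 and 85.8 CPM in NoDox_d4. On day 4 all D3Dox_d4 libraries were higher, with a log2 fold change of 0.67 ± 0.28 (adjusted p = 0.113), which was called without the library labelled NoDox_d2 replicate 1 (adjusted p = 0.00282). Il17rd was at 203, 216 and 202 CPM in D1Dox_d2 and 356, 229.6 and 273 CPM in NoDox_d2, and at 156, 203 and 194 CPM in D3Dox_d4 and 337, 146 and 128 CPM in NoDox_d4. On day 4 the D3Dox_d4 libraries lay between the library labelled NoDox_d4 replicate 1 and the other 2. On day 2 its groups did not overlap, with a log2 fold change of -0.47 ± 0.30 that was not called (adjusted p = 0.270) but was without replicate 1 of NoDox_d4 (adjusted p = 0.0292).

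The ETS targets Etv4 and Etv5 likewise were not called. Etv4 was at 44.5, 44.3 and 45.7 CPM in D1Dox_d2, against 90.7, 16.9 and 23.5 CPM in NoDox_d2. The doxycycline libraries differed by little among themselves and lay between the library labelled NoDox_d2 replicate 1 and the other 2. The log2 fold change of 0.04 ± 0.55 (adjusted p = 0.970) became 1.14 ± 0.17 (adjusted p = 5.58e-05) without both NoDox libraries numbered 1, and the gene was called without the library labelled NoDox_d2 replicate 1 (adjusted p = 0.0357). On day 4 Etv4 was at 48.6, 44.03 and 41.8 CPM in D3Dox_d4 and 74.6, 35.0 and 22.2 CPM in NoDox_d4, again within the NoDox range. Etv5 was at 208, 207 and 228 CPM in D1Dox_d2 and 415, 179 and 226 CPM in NoDox_d2, and at 106, 120.4 and 126 CPM in D3Dox_d4 and 204, 124 and 87.8 CPM in NoDox_d4. It was called on neither day, with all libraries or without both numbered 1.

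As a group, the 11 feedback and target genes tested had 1 gene that rose and 3 that fell on day 2, and none that rose and 2 that fell on day 4. Over all genes, 14.9% rose and 13.4% fell on day 2, and 13.4% rose and 10.2% fell on day 4. The receptors, Fgfrl1 included, had 1 that rose and 1 that fell among 5 on day 2, and 1 that rose on day 4, while the 15 secreted ligands tested had 4 of each on day 2 and 3 of each on day 4. The feedback and target genes were more tightly spread over libraries with doxycycline than without, as were genes in general. Their SD was 0.254 to 10.2% of the mean in D1Dox_d2 (median 3.66%) and 3.64 to 93.5% in NoDox_d2 (median 42.1%), and 3.01 to 14.5% in D3Dox_d4 (median 8.61%) and 10.8 to 62.3% in NoDox_d4 (median 34.6%). Over all genes tested the median SD was 9.41% of the mean in D1Dox_d2 and 19.6% in NoDox_d2, and 12.4% in D3Dox_d4 and 19.8% in NoDox_d4. The library labelled NoDox_d2 replicate 1 was above both other replicates for 9 of the 11 genes, and NoDox_d4 replicate 1 for 8 of 11. For the 5 receptors these libraries were instead below both others in 5 genes on day 2 and 4 on day 4. With both libraries left out, 2 of the 11 genes rose and 4 fell on day 2 (26.8% and 26.4% of all genes), when Etv4 and Spry4 were higher and Spry1, Spry2, Spred1 and Il17rd lower. On day 4, 6 rose and 3 fell (20.6% and 17.9% of all genes). Those that rose were Spry4, Spred3, Dusp4 (0.78 ± 0.12, adjusted p = 8.85e-05), Dusp6 (0.63 ± 0.14, adjusted p = 0.00190), Etv4 (0.65 ± 0.16, adjusted p = 0.00571) and Il17rd (0.42 ± 0.11, adjusted p = 0.00911), and those that fell were Spry1, Spry2 and Spred1. These fits leave 2 libraries in each NoDox group.

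**Figure D4:**
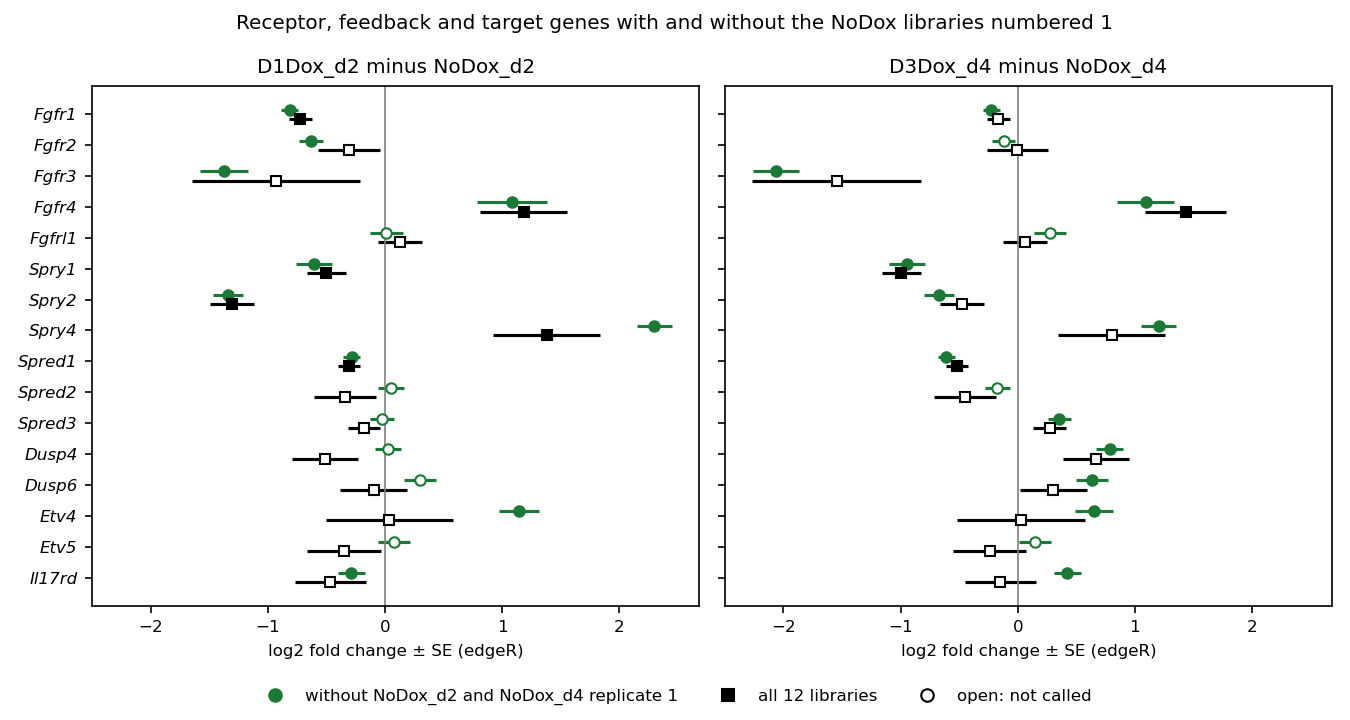
Log2 fold change ± SE from edgeR of receptor, feedback and target genes, D1Dox_d2 minus NoDox_d2 on the left and D3Dox_d4 minus NoDox_d4 on the right. Green circles leave out NoDox_d2 and NoDox_d4 replicate 1, black squares use all 12 libraries, and filled symbols are called at adjusted p under 0.05. Etv4 on day 2 is at 1.14 ± 0.17 without these libraries and 0.04 ± 0.55 with them. The values of Fgfr1, Spry1 and Spred1 differ little between the fits, but Fgfr1 on day 4 is called only without these libraries.

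The effects of the 2 days were compared directly as the day 4 effect minus the day 2 effect. It was called for 7 of the 35 genes, or 20%, against 12.9% of all genes. Fgf3, Fgf21, Fgf13 and Fgfr1 had the higher effect on day 4 (4 of 35; 6.66% of all genes), and Fgf18, Fgf5 and Fgf2 the lower (3 of 35; 6.24% of all genes). Another 7 had an unadjusted p under 0.05 without a call. With both NoDox libraries numbered 1 left out, 18 genes were called, against 34.5% of all genes, with 11 higher (18.7%) and 7 lower (15.8%), and the 18 included all 7. The count rests on single libraries. It was 12 when the library labelled NoDox_d2 replicate 1 was left out, 1 to 3 when any 1 of the 6 doxycycline libraries was, 2 for replicate 2 and 1 for replicate 3 of NoDox_d2, and 3 for replicate 3 of NoDox_d4. None of the 11 feedback and target genes was called for this difference by edgeR with all libraries. Without both NoDox libraries numbered 1, 3 of the 11 were called higher and 2 lower. The 2 lower were Spry4 (-1.095 ± 0.20, adjusted p = 0.000772) and Spred1 (-0.33 ± 0.11, adjusted p = 0.0275), and Spry2 (0.66 ± 0.18, adjusted p = 0.0124) was among the higher.

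Without doxycycline, 8 of the 35 genes differed between NoDox_d4 and NoDox_d2, or 22.9%, against 10.6% of all genes. This comparison uses the same NoDox libraries as those above. Fgf9, Fgf15, Fgf12 and Fgfr2 rose with time (4 of 35; 5.09% of all genes), and Fgf8, Fgf4, Fgf5 and Fgf1 fell (4 of 35; 5.55% of all genes). Groups did not overlap for 8 of the 35 genes, against 23.2% of all genes. Fgf9 had the highest of the positive values, with a mean of 6.94 ± 1.52 CPM in NoDox_d4 and 1.74 ± 0.283 CPM in NoDox_d2 (SD, n = 3 each) and a log2 fold change of 2.00 ± 0.22 (adjusted p = 0.000363). Fgfr2 was higher in every NoDox_d4 library than in any NoDox_d2 library, with a mean of 98.8 ± 18.1 CPM in NoDox_d4 and 37.3 ± 15.9 CPM in NoDox_d2 (SD, n = 3 each; log2 fold change 1.41 ± 0.27, adjusted p = 0.00675). Among those that fell, the log2 fold change was -1.75 ± 0.33 for Fgf8 (adjusted p = 0.00642), -1.89 ± 0.43 for Fgf5 (adjusted p = 0.0164) and -1.63 ± 0.23 for Fgf1 (adjusted p = 0.00134). Without both NoDox libraries numbered 1 the fall was smaller, at -1.15 ± 0.22 for Fgf8 (edgeR adjusted p = 0.00153) and -1.07 ± 0.21 for Fgf5 (adjusted p = 0.00184). The calls of these 5 genes were kept in each fit that left out 1 library. Those fits still held doxycycline libraries, whose spread enters the test. A fit of the NoDox libraries alone called only 1 of the FGF genes. Over all genes it called 206, against 1926 in the main fit. Most of the calls over time therefore depend on including the doxycycline libraries or a block for replicate number, and why the counts differ was not tested. Fgf4 (-2.13 ± 0.53, adjusted p = 0.0249) lost its call without the library labelled NoDox_d2 replicate 1 or replicate 2 or 3 of NoDox_d4 (adjusted p = 0.0521 to 0.0855).

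The calls of Fgf15 and Fgf12 over time were less stable. Fgf15 (0.93 ± 0.26, adjusted p = 0.0418) overlapped between the groups and was lost without replicate 1, 2 or 3 of D1Dox_d2, replicate 1, 2 or 3 of D3Dox_d4, the library labelled NoDox_d2 replicate 1, replicate 2 or 3 of NoDox_d2 or replicate 2 or 3 of NoDox_d4 (adjusted p = 0.0524 to 0.164). Fgf12 (1.73 ± 0.48, adjusted p = 0.0400) was lost without replicate 1, 2 or 3 of D1Dox_d2, replicate 1, 2 or 3 of D3Dox_d4, the library labelled NoDox_d2 replicate 1, replicate 2 of NoDox_d2 or replicate 2 or 3 of NoDox_d4 (adjusted p = 0.0560 to 0.148). The replicate number was also used as a block in a fit of the 6 NoDox libraries, although replicates 2 and 3 also deviated together across numbers. Fgf5 was then not called (adjusted p = 0.0814) while the other 7 genes were. Without the block, the fit of these 6 libraries called only 1 FGF gene. With the block in the fit of all 12 libraries, Fgf15 was not called (adjusted p = 0.0638). Another 9 genes had an unadjusted p under 0.05 with no call. With NoDox_d4 replicate 1 left out, 13 genes were called, against 17.1% of all genes. Without both NoDox libraries numbered 1 there were 18, against 24.4% of all genes, all of the 8 among them. In that last fit Fgf17 (-2.66 ± 0.29, adjusted p = 1.35e-05), Etv5 (-0.93 ± 0.15, adjusted p = 0.000366) and Il17rd (-0.87 ± 0.12, adjusted p = 0.000153) were among the further genes that fell, and Fgf18 (1.70 ± 0.25, adjusted p = 0.000219) among those that rose.

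Genes around the ligands and receptors were described from 3 further lists. Of 27 genes for co-receptors and heparan sulfate proteoglycans, 25 were tested, and 7 rose and 3 fell on day 2 (14.9% and 13.4% of all genes), with a median log2 fold change of 0.47, against -0.03 over all genes. Sdc3, a syndecan, averaged 105 ± 7.17 CPM in D1Dox_d2 and 29.6 ± 5.34 CPM in NoDox_d2 (SD, n = 3 each; log2 fold change 1.83 ± 0.15, adjusted p = 8.50e-06). Flrt2, a membrane protein whose family binds FGF receptors, averaged 147 ± 16.8 CPM in D1Dox_d2 and 8.16 ± 7.03 CPM in NoDox_d2 (4.16 ± 0.56, adjusted p = 0.000295). The glypican Gpc3 (-1.35 ± 0.14, adjusted p = 5.85e-05) and the heparan sulfatase Sulf1 (-1.25 ± 0.21, adjusted p = 0.00149) fell. On day 4, 5 rose and 6 fell (13.4% and 10.2% of all genes), with a median of -0.18, against -0.03 over all genes. Sdc3 rose again (1.60 ± 0.15, adjusted p = 2.40e-05), as did the glypican Gpc1 (0.76 ± 0.09, adjusted p = 9.58e-05), and Gpc3 (-1.46 ± 0.14, adjusted p = 3.26e-05) and Sulf1 (-1.45 ± 0.22, adjusted p = 0.000661) fell again. Without both NoDox libraries numbered 1, 18 of this list were called on day 2 (53.2% of all genes) and 17 on day 4 (38.5% of all genes). Without NoDox_d4 replicate 1 alone, 16 were called on day 2 (6780 genes of the whole table, against 5136 with all libraries).

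Of 25 genes for the proteins that carry the signal inside the cell, all tested, 6 rose and 2 fell on day 2 (median 0.12) and 8 rose and 1 fell on day 4 (median 0.04). The day 2 count of 8 stands against 28.4% of all genes, a share near that of the list, and the day 4 count of 9 against 23.5%. The adaptor Gab1 averaged 115 ± 7.17 CPM in D1Dox_d2 and 25.2 ± 1.57 CPM in NoDox_d2, and 119 ± 14.8 CPM in D3Dox_d4 and 36.5 ± 7.97 CPM in NoDox_d4 (SD, n = 3 each). Its log2 fold change was 2.19 ± 0.15 on day 2 (adjusted p = 2.20e-06) and 1.70 ± 0.15 on day 4 (adjusted p = 1.45e-05). Another adaptor gene, Shc1, rose on day 2 (0.89 ± 0.22, adjusted p = 0.0129) and on day 4 (1.77 ± 0.23, adjusted p = 0.000268). Mapk3, which encodes ERK1, was among those that fell on day 2 (-0.36 ± 0.10, adjusted p = 0.0197), and the ERK-activated kinase gene Rps6ka3 (-0.60 ± 0.18, adjusted p = 0.0285) fell on day 4. The day 2 count of 8 was 4 when replicate 1 or replicate 3 of D1Dox_d2 was left out, 3 when replicate 2 of D1Dox_d2 was, and 1 when replicate 2 or replicate 3 of NoDox_d2 was, and it was 15 without both NoDox libraries numbered 1 (53.2% of all genes). The day 4 count of 9 was 5 when replicate 2 or replicate 3 of D3Dox_d4 was left out. Over the whole table the fits named here without 1 library called 3048 to 3762 genes on day 2, against 5136 with all libraries. On day 4 such fits called 2919 and 2756 genes, against 4263.

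Of 19 other genes that ERK signalling induces in many cell types, 18 were tested, and 7 rose and 3 fell on day 2 (median 0.52), while 3 rose and 3 fell on day 4 (median -0.45). The counts of 10 and 6 stand against 28.4% of all genes on day 2 and 23.5% on day 4. On day 2 the immediate early gene Egr1 (1.51 ± 0.13, adjusted p = 1.43e-05) and the receptor inhibitor gene Errfi1 (1.17 ± 0.14, adjusted p = 0.000114) rose, and the Eph receptor genes Epha4 (-1.36 ± 0.23, adjusted p = 0.00148) and Epha2 (-0.90 ± 0.25, adjusted p = 0.0196) fell. On day 4 Fos (1.68 ± 0.33, adjusted p = 0.00337) and Ier3 (1.17 ± 0.33, adjusted p = 0.0227) rose, and the cyclin gene Ccnd1 (-0.63 ± 0.08, adjusted p = 0.000303) and Errfi1 (-0.71 ± 0.14, adjusted p = 0.00342) fell. The count of 10 on day 2 was 6 when replicate 2 and 4 when replicate 3 of D1Dox_d2 was left out, and 5 when replicate 2 and 6 when replicate 3 of NoDox_d2 was. The count of 6 on day 4 was 3 when replicate 2 of D3Dox_d4 was left out (2919 genes of the whole table) and 12 without both NoDox libraries numbered 1 (38.5% of all genes). It was 11 without the library labelled NoDox_d2 replicate 1, where 5554 genes of the whole table were called, against 4263 with all libraries. These lists are described by their counts and medians, with no test of a list.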

How the data were processed

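RNA of 12 libraries was sequenced with the NEBNext Ultra II kit as 150 bp read pairs, of which trimmed reads of at least 50 bp were kept, per the labels' protocols. The tools STAR, featureCounts and DESeq2 and the build names GRCm38 and mm10 come from the submitters' processing notes. The authors deposited 1 table of raw counts per gene, which featureCounts 2.0.1 made from GENCODE vM25 without a strand setting, per the file headers, so reads of a gene and of an antisense partner were counted alike. For Spry1, Fgfr3, Fgf15 and Fgf20 over 10% of the exon bases lie opposite such a partner. The Ensembl identifiers of 55141 of the 55487 genes had a symbol.

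From these counts the whole table was tested with edgeR 4.0.16 (limma 3.58.1, R 4.3.3), using TMM scaling, the filterByExpr filter, 1 coefficient per group over 12 libraries with 8 residual degrees of freedom, and the quasi-likelihood F-test. It covered 18109 genes, with Benjamini-Hochberg adjustment over them. An SE is the size of the log2 fold change over the root of F and can understate counting error in groups with few counts. The procedure was tested on simulated data with the same relative spread beyond counting error for every gene and no library that stood apart. That test therefore does not cover the spread seen in the NoDox groups. The 4 comparisons were doxycycline against none on day 2 and on day 4, day 4 effect minus day 2 effect, and NoDox_d4 against NoDox_d2, and they share libraries. Alternatives were other scalings and filters, DESeq2 1.42.0, robust moderation, only the libraries compared, the replicate number as a block, an adjusted p under 0.01, each library left out, and both NoDox libraries numbered 1 left out. The block in the NoDox libraries alone was added after seeing the data. The 2 NoDox libraries numbered 1 were picked because they stood apart in these data, so the p-values without them come after that selection. Over all genes, the share called on day 2 was 53.2% in that fit and 28.4% with all libraries. Ratios of counts carry exact intervals for counting error only.

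Same-numbered NoDox_d4 and NoDox_d2 libraries deviated from their group means together (correlations 0.583, 0.439 and 0.385 across genes). So did NoDox_d2 replicate 2 with NoDox_d4 replicate 3 (0.509) and NoDox_d2 replicate 3 with NoDox_d4 replicate 2 (0.424). Replicate 1 deviated against replicates 2 and 3 of the other day (-0.55 to -0.471). These values set replicate 1 apart on each day and do not pair replicates 2 and 3 by number. The labels give no pairing either. Same-numbered doxycycline and NoDox libraries did not deviate together (-0.153 to 0.055). Between D1Dox_d2 and D3Dox_d4 the same-numbered values were 0.323, 0.036 and 0.199, and those across numbers ran from -0.279 to 0.172.

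The genes and lists were chosen with earlier results of these data known. Every listed gene is accounted for. Values in every library are given on at least 1 day for genes called in at least 1 comparison with a group mean of at least 1 CPM. On the other day some of these genes have a group mean, summed counts or the call alone. For Fgf4, Fgf5, Fgf8 and the receptors Fgfr1 to Fgfr4 such values are given on each day. Up to 2 called genes per direction of the other lists are named. A further gene that this rule names is not reported here. Values beyond this rule were added after they were seen.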

Additional observations from a re-analysis of the deposited data

Results flagged for a closer look

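For 7 genes the effect of doxycycline differed between the days by a test of the difference itself (edgeR, day 4 effect minus day 2 effect, log2 scale). Fgf18 differed by -2.63 ± 0.67 and lost its call in 8 of the 12 fits without 1 library. Fgf5 differed by -2.20 ± 0.61 and lost its call in 9 of the 12 fits without 1 library. Fgf2 differed by -2.16 ± 0.63 and lost its call in 10 of the 12 fits without 1 library. Fgf3 differed by 2.42 ± 0.37, and its call was kept in each fit without 1 library. Fgf13 differed by 1.05 ± 0.31 and lost its call in 9 of the 12 fits without 1 library. Fgfr1 differed by 0.56 ± 0.14 and lost its call in 5 of the 12 fits without 1 library. Fgf21 differed by 5.42 ± 1.62, a value that rests on 1 count in D1Dox_d2, and lost its call without replicate 1, 2 or 3 of D1Dox_d2, replicate 1, 2 or 3 of D3Dox_d4, replicate 2 or 3 of NoDox_d2 or replicate 3 of NoDox_d4 (adjusted p = 0.0624 to 0.1504). Without both NoDox libraries numbered 1 all 7 were called, with values of -3.02 ± 0.32 for Fgf18, -3.01 ± 0.29 for Fgf5, -2.46 ± 0.45 for Fgf2, 2.09 ± 0.29 for Fgf3, 0.60 ± 0.14 for Fgf13, 0.59 ± 0.10 for Fgfr1 and 5.33 ± 1.14 for Fgf21.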

How the results depend on the processing

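Counts of called FGF genes were within 1.5 times the main count under both other scalings, the stricter filter, robust moderation and, apart from NoDox_d4 against NoDox_d2, DESeq2, whose count there was 14. Over the whole table DESeq2 called 2694 genes in that comparison, against 1926 in the main fit. At an adjusted p under 0.01 the counts were 5 on day 2, 3 on day 4, 1 for the difference and 4 for NoDox_d4 against NoDox_d2. The share of all genes at that threshold is not given here. Without both NoDox libraries numbered 1 the FGF counts were 24, 23, 18 and 18 in the same order, against 53.2%, 38.5%, 34.5% and 24.4% of all genes. With no filter the difference had 11, where 2509 genes of the whole table were called, against 2336 in the main fit. In a fit of only the libraries compared, NoDox_d4 against NoDox_d2 had 1, where 206 genes of the whole table were called, against 1926 in the main fit. With 1 library left out the counts ranged over 6 to 20 on day 2, 5 to 15 on day 4, 1 to 12 for the difference and 6 to 13 for NoDox_d4 against NoDox_d2. Over the whole table these fits called 3048 to 7438, 2756 to 5554, 1226 to 5037 and 1064 to 3208 genes, in the same order. Without both NoDox libraries numbered 1, the co-receptor list had 18 on day 2 and 17 on day 4, the signal transduction list 15 on day 2 and the ERK-induced list 12 on day 4. At an adjusted p under 0.01, the signal transduction list had 1 on day 2 and 5 on day 4, and the ERK-induced list 4 on day 2 and 3 on day 4. The signal transduction list had 5 on day 2 with no filter, where 5092 genes of the whole table were called. With 1 library left out, the co-receptor list ranged over 9 to 16 on day 2 and 8 to 13 on day 4, the signal transduction list over 1 to 12 and 5 to 10, and the ERK-induced list over 4 to 13 and 3 to 11. With the replicate block the FGF counts were 15 on day 2, 7 on day 4, 4 for the difference and 8 for NoDox_d4 against NoDox_d2. In the NoDox libraries alone the replicate block gave 11, where 1928 genes of the whole table were called. Same-numbered doxycycline and NoDox libraries do not deviate together, and NoDox replicates 2 and 3 deviate together across numbers. The block is therefore not read as a pairing in either fit.

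Of 1864 recomputed values of single genes, 1616 stayed on their side of the threshold, 195 lost a call and 52 gained one. Of the 1616, 41 changed sign while called in neither fit. A further value changed sign with a call in 1 of the fits, which was Il17rd on day 4, at 0.42 ± 0.11 without both NoDox libraries numbered 1 and -0.15 ± 0.30 with them. The cause of these changes was not tested. Scaling moved the median of all genes by less than 0.1 on the log2 scale. Depth limits the genes near 3 counts a library, Fgf6, Fgf16, Fgf20, Fgf21 and Fgf23.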
